A study of Homo sapiens with 8 samples.

Results

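A set of 10 genes of canonical Wnt signalling were followed in HCT116 cells, a human colorectal carcinoma line, after exposure to the bacterium Fusobacterium nucleatum. They were the effector CTNNB1, the destruction complex genes APC, AXIN1 and AXIN2, and the transcription factors TCF7, TCF7L2 and LEF1. The others were the receptor gene LGR5, the receptor turnover gene ZNRF3 and the surface target CD44. All 10 were chosen by gene symbol and were found among the 19475 entries of the expression table. The Control cells had received PBS and the F. nucleatum cells the bacterium, at 100 bacteria per cell for 2 h by the methods of the study. Poly(A) RNA of each culture was fragmented and sequenced both as input and after pull-down with an antibody against N6-methyladenosine (m6A), with 2 biological replicates per treatment. A list of m6A peaks was given for each replicate, and the mRNA level came from the input library in FPKM (fragments scaled by transcript length and by the total mapped in a library). All cells were of 1 established line in culture, so the comparison holds for that line at 1 time point.

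In the canonical pathway, a destruction complex of APC, AXIN1 or AXIN2 and the kinases GSK3 and CK1 marks β-catenin, the product of CTNNB1, for degradation. Wnt ligands bound by Frizzled and LRP5/6 receptors inhibit the complex, and β-catenin then enters the nucleus, where it works with TCF/LEF factors on target genes such as AXIN2, LGR5, ZNRF3 and CD44. The pathway maintains the stem cells of the intestinal crypt, and mutations that activate it drive most colorectal tumours. HCT116 is known for an activating mutation of CTNNB1 beside an intact APC. m6A is a methyl mark on adenosines of mRNA, found mostly near stop codons and in long exons, within motifs of which GGAC is a common core.

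To show where the mark was called, 1 GGAC site of each gene that had one under the peaks of all 4 lists is printed, with its A in the centre of 21 nt. The site shown is the one nearest the middle of the longest such stretch on the mRNA (of the CTNNB1 stretches, the one that held a motif). For AXIN1 and TCF7L2, a site under the peaks of both Control lists and of neither F. nucleatum list is shown beside it. The TCF7L2 site of this kind lies just past the edge of the F. nucleatum peaks, in a region with a peak in all 4 lists. Sequences are those of the reference (GRCh37), read 5′ to 3′ on the mRNA strand, with GGAC in capitals. A match to the motif does not show that the base was methylated.
CTNNB1, CDS, chr3:41280759-41280779, plus strand: catgcccaGGACctcatggat
APC, CDS, chr5:112179504-112179524, plus strand: taaaaccaGGACaaaataatc
AXIN1, CDS, all lists, chr16:396669-396689, minus strand: gacttgctGGACttctggttt
AXIN1, CDS, Control lists only, chr16:347922-347942, minus strand: gcgaagctGGACgcggccggc
TCF7, 3′UTR, chr5:133482213-133482233, plus strand: caggcacaGGACacctggccg
TCF7L2, CDS, all lists, chr10:114925582-114925602, plus strand: ggggccctGGACctgccccca
TCF7L2, CDS, Control lists only, chr10:114925677-114925697, plus strand: cctggccgGGACccagcccca
ZNRF3, CDS, chr22:29445433-29445453, plus strand: ctccacctGGACcacagcctg
CD44, CDS, chr11:35250735-35250755, plus strand: agccaagtGGACtcaacggag

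Of the 8 colorectal epithelial markers examined, 6 were at 1 FPKM or more in all 4 input libraries (EPCAM, KRT8, KRT18, KRT19, CDH1 and CDX2), whereas VIL1 and GPA33 were not. The summed level of the 8 ranged from 4360 to 5180 FPKM. The 4 leukocyte markers summed to between 0.0536 and 0.222 FPKM, the 4 endothelial markers to between 0.0651 and 0.197 FPKM, and the 4 fibroblast markers, of which COL1A1 passed 1 FPKM, to between 3.78 and 5.78 FPKM. Relative to Control 1, the other input libraries were estimated to be 1.11 times (Control 2), 1.23 times (F. nucleatum 1) and 0.913 times (F. nucleatum 2) as deep. Read counts were not given, so absolute depths were unknown, as were those of the pull-down libraries, and no counting interval could be computed.

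The first comparison asked whether the mRNA of these genes differed after the bacterium. None of the 8 genes that could be tested passed an adjusted p under 0.05 (limma, Benjamini-Hochberg over 11088 genes), against 0.803% of all genes tested. At an unadjusted p under 0.05, only AXIN2 passed, with a lower level in F. nucleatum cells, against 13.5% of all genes in either direction and 6.45% with a lower level. The groups did not overlap for CTNNB1, AXIN2 and CD44, against 47.2% of all genes tested (26.1% with higher and 21.1% with lower F. nucleatum libraries), so this was not more frequent than elsewhere. LEF1 and LGR5 lay under the filter of 1 FPKM and are given by their values. The fold changes are on the scale of log2(FPKM + 1), which understates the change of low genes such as AXIN2.

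The mRNA levels of the 10 genes covered a wide range. CD44 (87.7 to 93.1 FPKM) and CTNNB1 (73.7 to 97.2 FPKM) were highest and overlapped each other over the 4 libraries. TCF7L2 followed at 15.7 to 17.8 FPKM and AXIN1 at 8.5 to 10.2 FPKM, each apart from its neighbours in this order. TCF7 (3.13 to 4.11 FPKM) and APC (2.88 to 3.52 FPKM) overlapped. ZNRF3 (1.94 to 2.42 FPKM) and AXIN2 (1.19 to 1.84 FPKM) were the lowest of those tested and did not overlap.

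**Figure D1:**
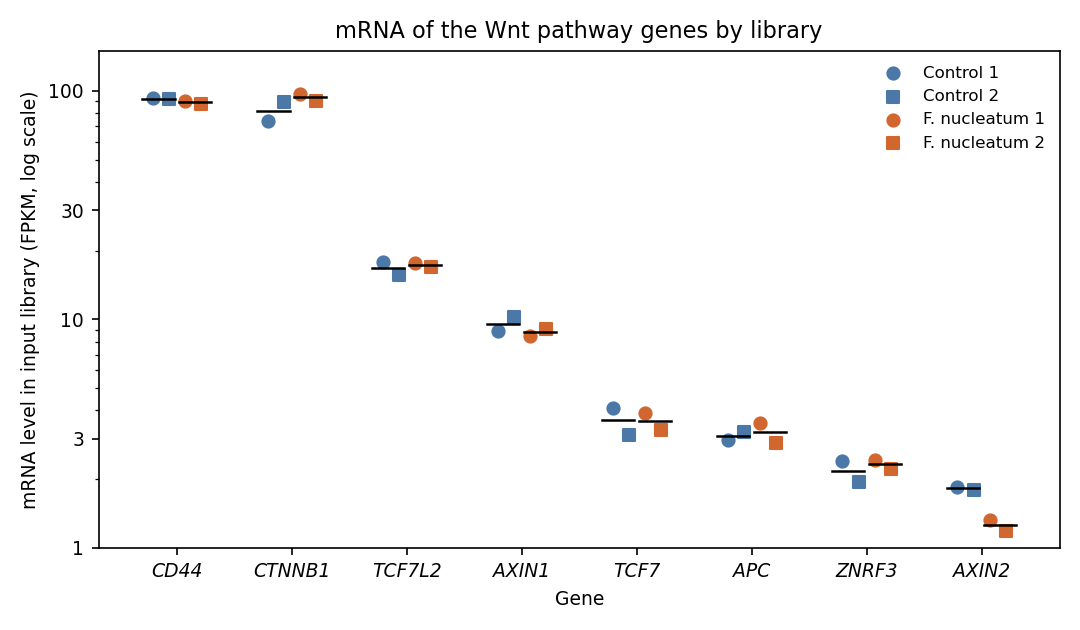
mRNA level (FPKM, log axis) of the 8 tested Wnt genes in each input library. Blue points are Control and orange points F. nucleatum libraries, circles replicate 1 and squares replicate 2, and black lines are the means of the 2 libraries of a group. AXIN2 was at 1.84 and 1.79 in Control against 1.33 and 1.19 FPKM in F. nucleatum libraries, whereas the groups lay close together for CD44.

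CTNNB1 encodes β-catenin itself. Its mRNA measured 73.7 and 89.9 FPKM with PBS (Control 1 and 2) and 97.2 and 90.8 FPKM with the bacterium (F. nucleatum 1 and 2), the order kept below. Both F. nucleatum libraries were higher than both Control libraries, but F. nucleatum 2 exceeded Control 2 by less than the Control libraries differed from each other. The group means were 81.8 ± 11.5 and 94 ± 4.55 FPKM (SD, n = 2), and the log2 fold change was 0.20 ± 0.103 (SE), with a 95% interval from -0.05 to 0.46 and a limma adjusted p of 0.444. It was 0.063 without Control 1 and 0.35 without Control 2 (limma adjusted p 0.681 and 0.0545, and 0.0545 to 0.858 over all alternatives).

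Among the destruction complex genes, AXIN2 had the largest difference. AXIN2 is both a scaffold of the complex and a target of β-catenin, and its mRNA is commonly read as a gauge of pathway activity. The values were 1.84 and 1.79 FPKM in Control against 1.33 and 1.19 FPKM in F. nucleatum libraries, with means of 1.82 ± 0.0298 and 1.26 ± 0.101 FPKM (SD, n = 2). The groups did not overlap, and the F. nucleatum mean was 0.694 times the Control mean. The log2 fold change was -0.32 ± 0.0945 (SE), with a 95% interval from -0.55 to -0.08, a p of 0.0171 before adjustment (limma) and an adjusted p of 0.284, so the difference did not pass the test over all genes. In RNA of whole cultures, fewer cells with a transcript and less of it per cell cannot be told apart.

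AXIN1 is the scaffold that is present without Wnt input. It measured 8.91 and 10.2 FPKM with PBS and 8.5 and 9.04 FPKM with the bacterium, and the groups overlapped. The log2 fold change of AXIN1 was -0.11, with a 95% interval from -0.33 to 0.12 (limma adjusted p 0.617), and it lay between -0.20 without Control 1 and -0.022 without Control 2. APC, the tumour suppressor that binds β-catenin in the complex, measured 2.98 and 3.21 FPKM with PBS and 3.52 and 2.88 FPKM with the bacterium. These groups overlapped as well, with a log2 fold change of 0.04, a 95% interval from -0.24 to 0.31 and a limma adjusted p of 0.91.

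The TCF/LEF factors bind DNA and carry β-catenin to target genes. TCF7L2, the main family member of the intestinal epithelium, measured 17.8 and 15.7 FPKM with PBS and 17.7 and 16.9 FPKM with the bacterium (log2 fold change 0.05, 95% interval from -0.16 to 0.25, limma adjusted p 0.832). TCF7 measured 4.11 and 3.13 FPKM with PBS and 3.9 and 3.27 FPKM with the bacterium (log2 fold change -0.0048, 95% interval from -0.35 to 0.34, limma adjusted p 0.993). LEF1, which is also a target of the pathway, was listed at 0 in all 4 libraries. TCF7L2 and TCF7 were thus the family members with a measured level among the 3, and their groups overlapped.

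Of the genes for receptors and their turnover, LGR5 encodes the R-spondin receptor that marks crypt stem cells. It was listed at 0 in 3 libraries and at 0.0289 FPKM in F. nucleatum 1, so no comparison could be made. ZNRF3, a ubiquitin ligase that removes Frizzled receptors from the surface, measured 2.41 and 1.94 FPKM with PBS and 2.42 and 2.21 FPKM with the bacterium. The ZNRF3 groups overlapped (log2 fold change 0.07, 95% interval from -0.21 to 0.34, limma adjusted p 0.812). CD44, the hyaluronan receptor, measured 93.1 and 91.8 FPKM with PBS and 90.8 and 87.7 FPKM with the bacterium. Its F. nucleatum libraries were both the lower, but the interval of the log2 fold change ran from -0.18 to 0.08 around -0.05 (limma adjusted p 0.688).

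**Figure D2:**
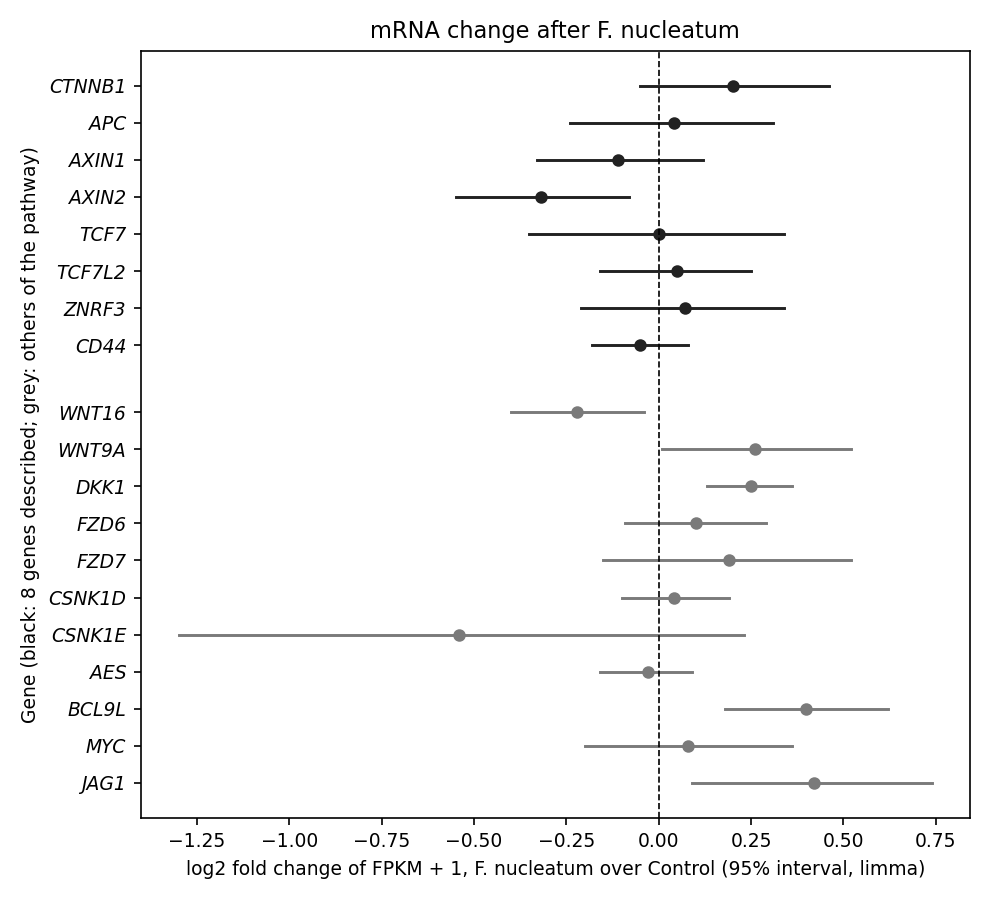
Change of mRNA after F. nucleatum, as log2 fold change of FPKM + 1 with its 95% interval from limma (n = 2 libraries a group). The 8 tested Wnt genes are in black and 11 further pathway genes in grey. Intervals of AXIN2, WNT16, WNT9A, DKK1, BCL9L and JAG1 leave out 0, but none of the 19 genes passed an adjusted p under 0.05.

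The rest of the pathway was read from a list of 97 genes in 6 roles. All 97 were in the table, 16 were at 0 in every library and 53 were tested, of which none had an adjusted p under 0.05 (limma). At an unadjusted p under 0.05 there were 8, with WNT9A, DKK1, BCL9L and JAG1 higher and WNT16, DVL1, TLE3 and MMP7 lower in F. nucleatum libraries, beside 13.5% of all genes (7.04% higher, 6.45% lower). The median log2 fold change of the 53 genes was 0.06, against 0.01 for all genes tested.

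Among Wnt ligands and the genes for their secretion, 7 of 21 were tested, and WNT9A was higher and WNT16 lower before adjustment. WNT16 had the highest level, with 44.1 and 46.9 FPKM under PBS and 40.5 and 37.3 FPKM under the bacterium (log2 fold change -0.22, limma adjusted p 0.3). On the log2(FPKM + 1) scale WNT9A had the largest difference, from 5.1 and 5.42 FPKM to 5.97 and 7.11 FPKM (log2 fold change 0.26, limma adjusted p 0.359), while the ratio of the means was 1.24 for WNT9A and 1.3 for WNT7B (log2 fold change 0.25). None of the 3 passed the test over all genes. Of 11 secreted inhibitors only 2 were tested. DKK1, which blocks the LRP5/6 co-receptors and is itself a target of β-catenin, was the most abundant of the pathway genes named, with 388 and 384 FPKM under PBS and 464 and 453 FPKM under the bacterium. The 2 groups did not overlap, as in 47.2% of all genes tested. The log2 fold change was 0.25 ± 0.0466 (SE), with a 95% interval from 0.13 to 0.36. The limma adjusted p was 0.142, so DKK1 did not pass either.

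All 10 tested genes for receptors, R-spondins and receptor turnover had an estimate above 0, beside 5992 of all 11088 genes, with a median log2 fold change of 0.09, but none reached an unadjusted p under 0.05. With quantile normalization, median centring or a GC correction, 8 of the 10 were above 0, and without F. nucleatum 1 it was 6 of 9. Of these, the highest level was that of FZD6 (13.6 and 14 FPKM in Control, 15.5 and 14.2 FPKM in F. nucleatum libraries, log2 fold change 0.10, limma adjusted p 0.593) and the largest difference that of FZD7 (1.68 and 1.13 FPKM, 1.74 and 1.71 FPKM, log2 fold change 0.19, limma adjusted p 0.566). Both encode Frizzled receptors. The FZD7 value was 0.02 without Control 2 and 0.35 without Control 1. Of 14 tested Dishevelled and destruction complex genes, 6 estimates were above 0 and 8 below. The kinase gene CSNK1D had the highest mean over the 4 libraries, 67.9 FPKM against 67.7 FPKM for DVL1 (75.1 and 70.7 FPKM with PBS, 59.3 and 65.7 FPKM with the bacterium), with 65.5 and 68.3 FPKM under PBS and 67.4 and 70.5 FPKM under the bacterium (log2 fold change 0.04, limma adjusted p 0.758). CSNK1E had the largest difference, at 45.6 and 30.2 FPKM against 33.9 and 18.8 FPKM, with overlapping groups (log2 fold change -0.54, 95% interval from -1.30 to 0.23, limma adjusted p 0.484). Its value moved to -0.25, -0.83, -0.95 and -0.13 without Control 1, Control 2, F. nucleatum 1 and F. nucleatum 2.

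Among nuclear partners of β-catenin, 12 of 14 were tested, 8 with an estimate above 0. AES, now named TLE5, a member of the Groucho co-repressor family, measured 107 and 110 FPKM with PBS and 105 and 107 FPKM with the bacterium (log2 fold change -0.03, limma adjusted p 0.797). BCL9L, a co-activator that binds β-catenin, measured 18.1 and 20.2 FPKM with PBS and 24.2 and 27.1 FPKM with the bacterium. Its groups did not overlap, as in 47.2% of all genes tested (log2 fold change 0.40 ± 0.089, SE, limma adjusted p 0.202). Of 16 other genes reported as β-catenin targets, 8 were tested, 4 with an estimate above 0 and 4 below. MYC measured 152 and 192 FPKM with PBS and 176 and 185 FPKM with the bacterium, and the groups overlapped (log2 fold change 0.08, limma adjusted p 0.78). JAG1, a Notch ligand, measured 3.87 and 2.88 FPKM with PBS and 4.93 and 4.67 FPKM with the bacterium (log2 fold change 0.42, 95% interval from 0.09 to 0.74, limma adjusted p 0.289). MMP7 went the other way, with 1.69 and 1.02 FPKM under PBS and 0.738 and 0.781 FPKM under the bacterium (log2 fold change -0.41, limma adjusted p 0.36). The ratio of the means was 1.42 for JAG1 and 0.561 for MMP7.

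The second comparison asked whether m6A peaks of the same genes differed between treatments. Peaks were named for 8 of the 10 genes, and LEF1 and LGR5 had none. The lists held 23 and 25 of these peaks for Control and 25 and 21 for F. nucleatum, 94 of 70751 peaks in all, and each lay within the body of the gene it was named for. The Control lists averaged 24 ± 1.41 peaks and the F. nucleatum lists 23 ± 2.83 (SD, n = 2), a difference well inside the spread (two-sided exact permutation test, p = 1). Peaks covered 8704 and 9996 bases under PBS and 9161 and 7567 bases under the bacterium, with means of 9350 ± 914 and 8364 ± 1130 (SD, n = 2, exact permutation p = 0.667). With 2 lists against 2, the smallest p of this test is 0.333, so no such difference could pass 0.05.

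Peaks of the 4 lists that shared at least 1 exonic base were merged into 24 regions, of 22001 in the whole series. Of the 24, 14 had a peak in every list (58.3%, against 51.5% of all regions). One region, in AXIN1, had a peak in both Control lists and in neither F. nucleatum list, against 2.64% of all regions, and 1 region, in TCF7L2, showed the reverse, against 2.38%. Neither count stands out from its background. Leaving out 1 list, so that fewer lists had to meet the rule, gave 3 Control-only regions without Control 1 and 4 without F. nucleatum 1. Of the 3 without Control 1, 2 were pieces of the same AXIN1 region, which the Control 1 peak had joined. There were 2 F. nucleatum-only regions without F. nucleatum 1 and also without F. nucleatum 2. GGAC was found on the mRNA strand of 18 regions (75%, against 72.8% of all regions). Of the 20 regions that could be placed on a canonical transcript, 1 had its midpoint in a 5′UTR, 14 in the coding sequence (CDS), 3 within 100 nt of a stop codon and 2 in a 3′UTR, while 45% of all placed regions fell in the CDS and 33.9% in 3′UTRs. APC alone accounted for 8 of the 14 CDS regions.

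AXIN1 had the largest share of peak bases covered in both lists of 1 treatment only. The gene lies on chromosome 16 (337440 to 402723, minus strand), and its mRNA of 3707 nt had 3 regions. The first (364570 to 397024) began at the start of the CDS and had a peak in all lists, with lowest p-values of 4e-16 and 2e-28 in Control and of 2e-30 and 6.3e-25 in F. nucleatum lists. A stretch of 781 nt of it was covered in every list, and it holds 7 GGAC motifs, among them the first AXIN1 site printed above. Here the p-values of the groups overlapped.

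The second AXIN1 region (347825 to 360007, 600 nt on 3 exon blocks, CDS) had 1 peak in Control 1, at 2.5e-13, and 2 in Control 2, at 4.3e-06 and 3e-05, and no peak in the F. nucleatum lists. Both Control lists covered the same 240 nt of it, from 1848 to 2087 nt of the mRNA, with 4 GGAC motifs, one of which is the Control-only site printed above. The GC content of the region was 69.7%, while all Control-only regions of the series averaged 60.9 ± 11.5% (SD, n = 581), all F. nucleatum-only regions 46.1 ± 9.91% (SD, n = 524) and all regions 51.9%. The mRNA of AXIN1 was at 8.5 FPKM or more in each library, with overlapping groups. The part of GC content in this result was not tested, and the lists hold no value where no peak was called.

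The third AXIN1 region, at the stop codon (337980 to 339561, 391 nt), had peaks of 361 and 391 nt in the Control lists at 2.5e-23 and 5.6e-07. It had a peak of 151 nt at 1.2e-05 in F. nucleatum 1 and none in F. nucleatum 2. The peak of F. nucleatum 1 lay in the middle of those of Control, so that 120 nt on its 5′ side and 90 nt on its 3′ side were covered in both Control lists only. Over the whole gene, AXIN1 peaks covered 1622 and 1803 bases in Control and 992 and 811 bases in F. nucleatum lists. Of the 1982 bases under any AXIN1 peak, 481 (24.3%) were covered in both Control lists only and 0 in both F. nucleatum lists only, beside 3.47% and 2.48% of the bases under peaks of all genes. The Jaccard index (bases shared over bases in either list) was 0.755 between the Control lists, 0.764 between the F. nucleatum lists and 0.515 on average between lists of different treatment. The shares of all genes are pooled over their bases. How many single genes had such a share, such base totals or such Jaccard values is not given.

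**Figure D3:**
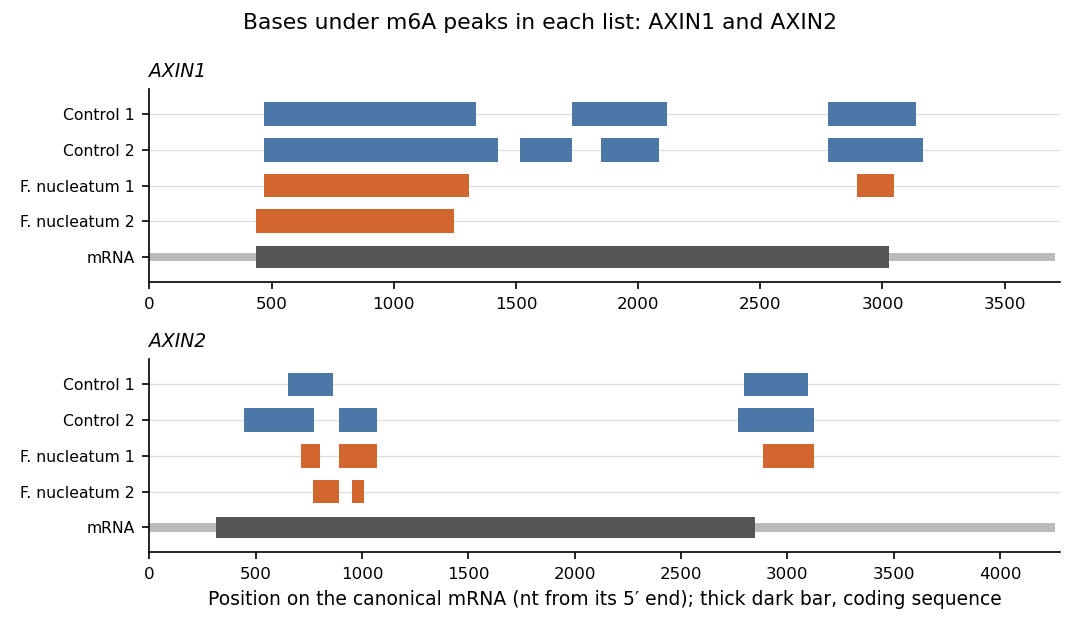
Bases under m6A peaks of AXIN1 and AXIN2 in each list, along the canonical mRNA in nt from its 5′ end. Blue bars are Control and orange bars F. nucleatum lists, and the thick dark bar is the CDS. Between 1518 and 2117 nt of AXIN1 only the Control lists had peaks, and at its stop codon F. nucleatum 2 had none.

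AXIN2, on chromosome 17 (63524681 to 63557766, minus strand), had 2 regions. In the CDS (63553984 to 63554610) all lists had peaks, at lowest p-values of 3.6e-05 and 0.00014 in Control and of 0.00069 and 0.00035 in F. nucleatum lists, but 1 base alone was common to all 4. How often p-values were so ordered by treatment over all regions is not given. At the stop codon (63525815 to 63526173) the peaks were at 1.4e-07 and 2.6e-10 in Control, at 1.1e-05 in F. nucleatum 1 and absent in F. nucleatum 2. Both AXIN genes had a peak in the stop codon region in the same 3 lists, but the AXIN2 peak of F. nucleatum 1 began 40 nt past the stop codon. AXIN2 peaks covered 508 and 868 bases under PBS and 511 and 180 bases under the bacterium, and the groups overlapped. The Jaccard index of AXIN2 was 0.438 between the Control lists, 0.154 between the F. nucleatum lists and 0.292 on average between treatments, so the Control lists were more alike and the F. nucleatum lists less alike than lists of different treatment. The stop codon region held no GGAC motif. AXIN2 mRNA was below 2 FPKM in all libraries and lower in both F. nucleatum libraries, and the part of this level in the peak calls was not tested.

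CTNNB1 had the largest share of peak bases common to all lists among the 8 genes. It lies on chromosome 3 (41236232 to 41301587, plus strand). The region around its stop codon (41280630 to 41281496, 867 nt) held 204 nt of the CDS and 663 nt of the 3′UTR, with lowest p-values of 1e-124 and 1e-128 in Control and of 1e-153 and 1e-108 in F. nucleatum lists. In Control 1 it was divided into 2 peaks, and in the other lists it was 1. A second region at the 5′ end (41240945 to 41241154) had peaks at 5.4e-05 and 1.5e-07 in Control and at 7.9e-12 and 4e-11 in F. nucleatum lists. Its length was 120 and 90 nt in Control and 180 and 210 nt in F. nucleatum lists. How often lengths or p-values were ordered by treatment over all regions is not given, and edges moved in steps of about 30 nt. A p-value also depends on the depth of the pull-down library, which was unknown. Of the 1077 bases under CTNNB1 peaks, 75% were covered in all lists, 0 in both Control lists only and 5.57% in both F. nucleatum lists only, the latter all at the 5′ end.

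APC, on chromosome 5 (112043215 to 112181936, plus strand), had 8 regions, the most of these genes, on an mRNA of 10704 nt. The strongest ran over the end of the CDS (112178667 to 112179927, 1261 nt), at lowest p-values of 1.6e-60 and 1.3e-53 in Control and of 2e-44 and 2.5e-40 in F. nucleatum lists. A stretch of 931 nt of it, with 3 GGAC motifs, was under a peak in every list. For the order of p-values in this region, no share over all regions is given. The other 7 lay inside the CDS and were weaker, with no p-value below 3e-09. Of those, 3 had a peak in every list, 1 in all but F. nucleatum 2, 1 in Control 2 and F. nucleatum 2, 1 in Control 2 alone and 1 in F. nucleatum 1 alone. APC peaks covered 1926 and 2527 bases in Control and 2768 and 2075 bases in F. nucleatum lists, and 34.2% of the bases were common to all 4. The Jaccard index was 0.542 in Control, 0.492 in F. nucleatum and 0.558 between treatments, so the lists did not sort by treatment.

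TCF7L2, on chromosome 10 (114710006 to 114927437, plus strand), had 4 regions. The first lay in the 5′UTR (114710009 to 114710397) and had peaks that began at the same base in all lists, at 7.9e-20 and 1e-18 in Control and at 4e-28 and 1.6e-19 in F. nucleatum lists. Their lengths were 210 and 270 nt in Control and 389 and 300 nt in F. nucleatum lists. For this order of lengths too, no share over all regions is given. The region found in both F. nucleatum lists only (114710487 to 114710606, 120 nt) lay just downstream, over the start codon, at 0.0016 and 0.00036. These p-values are weak beside those of the 5′UTR region, the region held no GGAC motif, and its GC content was 53.3%.

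Toward the 3′ end, a TCF7L2 region on 8 exon blocks (114911606 to 114925733) had lowest p-values of 3.2e-33 and 4e-29 in Control and of 5e-36 and 2.5e-20 in F. nucleatum lists. Both Control peaks ran to 2 nt past the end of the CDS, and both F. nucleatum peaks ended 57 nt before it, so that 59 nt with 1 GGAC motif were covered in Control only. That motif is the Control-only TCF7L2 site printed above. Its A is at 114925687 and the F. nucleatum peaks ended at 114925674, a gap smaller than the 30 nt step of peak edges given below. The region itself had a peak in all lists. A peak of 91 nt in the CDS (114900961 to 114901051) was called in F. nucleatum 2 alone, at 0.00016. TCF7L2 mRNA was between 15.7 and 17.8 FPKM in all libraries. Starts of peaks of different lists in 1 region differed by multiples of 30 nt (within 1 nt) in 95.5% of the 29041 pairs over all genes whose starts differed, so edges are known to steps of about that size.

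TCF7, on chromosome 5 (133450372 to 133487556, plus strand), had 1 region from its stop codon into the 3′UTR (133481886 to 133482395, 510 nt). Its peaks were at 8.9e-08 and 6.3e-11 in Control and at 2e-12 and 1.3e-13 in F. nucleatum lists, and 300 nt with 2 GGAC motifs were covered in all lists. The peak lengths of 390 and 420 nt in Control lay between those of 510 and 330 nt in the F. nucleatum lists. For the order of the TCF7 p-values too, no share over all regions is given.

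ZNRF3, on chromosome 22 (29279560 to 29453476, plus strand), had the longest region, of 2098 nt on 4 exon blocks (29442825 to 29449762), with 17 GGAC motifs. It held 1946 of the 2811 nt of the CDS and had peaks in all lists, at lowest p-values of 2e-16 and 6.3e-19 in Control and of 1.6e-17 and 5e-14 in F. nucleatum lists. The lists held 2 peaks each there, except for 3 in F. nucleatum 1, and covered 1620 and 2010 bases in Control and 1621 and 1620 bases in F. nucleatum. No base of ZNRF3 was covered in both lists of 1 treatment only.

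CD44, on chromosome 11 (35160429 to 35253949, plus strand), had the lowest p-values of these genes, at its stop codon (35244847 to 35250985, 331 nt on 2 exon blocks). They were 1e-182 and 1e-201 under PBS against 1e-266 and 1e-275 under the bacterium. The p-values of the F. nucleatum lists were lower by many orders, but a p-value also depends on the depth of the library, which was unknown, and the peaks were 301 and 271 nt long in Control and 301 and 331 nt long in F. nucleatum lists. The region upstream (35240891 to 35244069, 3 exon blocks) had a peak in every list, at 5e-39 and 5e-27 in Control and at 2e-29 and 5e-32 in F. nucleatum lists. The remaining one, at the 5′ end (35160597 to 35160806), had a peak in the first replicate of each treatment, at 8.5e-06 in Control 1 and 4e-06 in F. nucleatum 1. Stretches of 121, 148 and 21 nt lay outside the canonical transcript, each on an exon of 1 other annotated CD44 transcript. The one of 121 nt was in the region at the 5′ end.

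**Figure D4:**
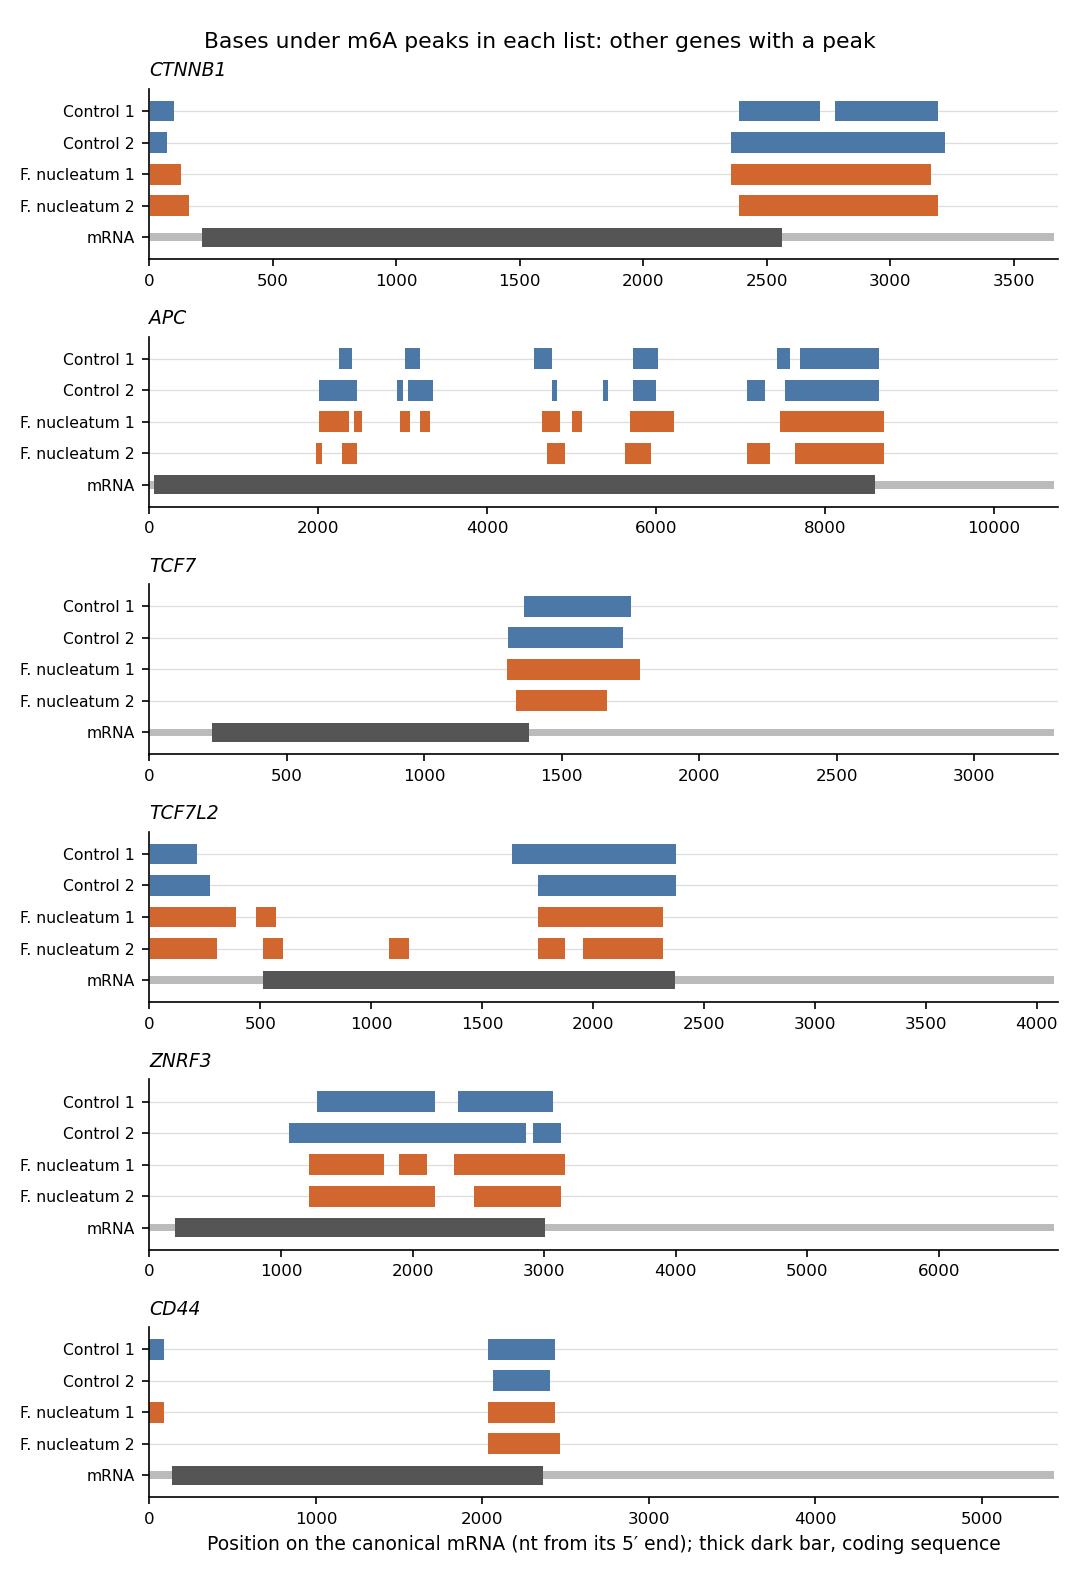
Bases under m6A peaks of the other 6 genes with a peak, by list, along the canonical mRNA in nt from its 5′ end (blue, Control; orange, F. nucleatum; thick dark bar, CDS). CTNNB1, APC, TCF7, ZNRF3 and CD44 had peaks that reached over the stop codon in all 4 lists. The regions of CTNNB1 and TCF7 there lay mostly in the 3′UTR. ZNRF3 also had long peaks in its CDS, and APC had 8 separate regions. Peak bases of CTNNB1, TCF7, TCF7L2 and CD44 outside the canonical transcript are not drawn.

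**Figure D5:**
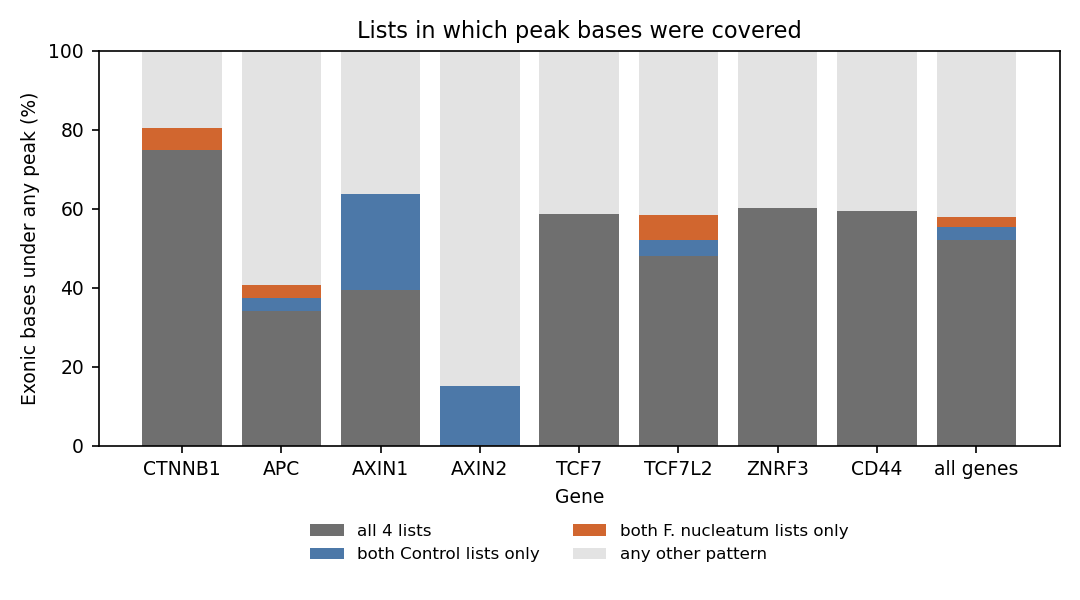
Share of the exonic bases under any peak that were covered in all 4 lists (dark grey), in both Control lists only (blue), in both F. nucleatum lists only (orange) or in any other pattern (light grey), for the 8 genes and for all genes. Control-only bases made up 24.3% of AXIN1 and 15% of AXIN2, against 3.47% of the bases pooled over all genes. How many single genes reached such shares is not given.

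Over the 8 genes together, 12509 exonic bases were under a peak in at least 1 list and 5560 (44.4%) in all 4, against 52% over all genes. Both Control lists only covered 807 bases (6.45%, against 3.47%), of which 481 were in AXIN1, 148 in AXIN2, 119 in APC and 59 in TCF7L2. Both F. nucleatum lists only covered 271 bases (2.17%, against 2.48%), in APC, TCF7L2 and CTNNB1. Bases of 1 peak are not independent of each other, and no test was made. Leaving out 1 list raised the Control-only bases to 1825 without Control 1, 1344 without Control 2 and 1770 without F. nucleatum 1, and it raised the F. nucleatum-only bases to 509, 783, 720 and 929 without Control 1, Control 2, F. nucleatum 1 and F. nucleatum 2, again with fewer lists to meet the rule.

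In the wider list, 61 of 97 genes had a peak, and their 144 regions included 5 found in both Control lists only (3.47%) and 4 found in both F. nucleatum lists only (2.78%), beside 2.64% and 2.38% of all regions. The strongest of the 9, at 4e-13 and 2e-16, was a Control-only region of 240 nt in the 3′UTR of AES (chromosome 19, 3053595 to 3053834, minus strand), with a GC content of 62.1%. AES mRNA differed little between the groups, as given above. The other Control-only regions were in WNT7B, FZD4, DVL1 and SOX9, and the F. nucleatum-only regions were in PORCN, FZD4, DVL3 and TNKS2. FZD4, a Frizzled receptor gene, had both, a Control-only region in its CDS and an F. nucleatum-only region in its 3′UTR. GC content ran from 41.7% (FZD4) to 71.5% (DVL1) in the Control-only regions. In the F. nucleatum-only regions it ran from 29.3% (TNKS2) to 57.3% (PORCN).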

How the data were processed

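The deposited mRNA values were FPKM per input library, made by the authors with StringTie after alignment to hg19 with HISAT2 2.1.0. Adapters were removed with cutadapt according to the methods of the study, whereas the submitters' processing notes name Trim Galore 0.3.3. FPKM correct for length and library total, not for GC content. The 4 deposited peak lists, 1 per replicate (pull-down against its input), gave position, strand, gene name, exon blocks and a score of at most 0.012, taken here as the p-value of the authors' peak caller. MACS2 is named in the methods, but the layout is that of exomePeak, and which one made the lists was not settled. No q-value, fold or summit was used here.

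Genes were matched by symbol. The 10 genes, the list of 97 and the markers were chosen with earlier results of these data known. Named in the wider list were the gene with the highest mean and that with the largest change on the log2(FPKM + 1) scale in each role. The regions of those genes and the genes with an unadjusted p under 0.05 were named after their values were seen. The test of mRNA was limma 3.58.1 (R 4.3.3; trend, no covariate) on log2(FPKM + 1), over 11088 genes whose 4 libraries averaged 1 FPKM or more. The count model of the methods could not be used on FPKM. Regions were merged from peaks on 1 strand that shared at least 1 exonic base. Bases were counted by list as an addition made after seeing the data. Positions are on GRCh37, 1-based, and transcripts are canonical ones of GENCODE release 44 mapped to that build. A region was placed on a transcript with at least 90% of its bases on it. Relative depth was read from genes at or below 0.05 FPKM, as the most frequent ratio of 6 pairs of libraries, which fitted 1 set of depths within 0.00543 on the log2 scale and was shared by 7 to 18 of 261 to 329 genes. The scripts were tested on simulated data and ran in Python 3.11.15. Alternatives are given in the closing section.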

Additional observations from a re-analysis of the deposited data

How the results depend on the processing

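None of the 8 tested genes passed an adjusted p under 0.05 (limma) with another pseudocount, no filter on low values, no trend, quantile normalization, median centring, a GC correction or any library left out, and 0 to 2 of them had an unadjusted p under 0.05. A replicate block gave 0 as well, and 90 against 89 calls over all genes. Same-numbered libraries did not deviate together across genes (Pearson r 0.0243). This does not show whether cultures or pull-downs of the same number were handled together. With the block, the log2 fold change of CSNK1E stayed at -0.54, and its limma adjusted p was 0.0754 against 0.484 without the block. Over all genes the calls were 40 with no filter on low values, 60 without trend, 172, 324, 25 and 17 without Control 1, Control 2, F. nucleatum 1 and F. nucleatum 2, and 81 to 90 under the other settings. AXIN2 stayed lower in all 11 alternatives (log2 fold change -0.50 to -0.27), with a limma adjusted p of 0.228 to 0.328 where all libraries were kept. Both F. nucleatum values of AXIN2 lay below both Control values. Leaving out a library or changing the pseudocount, filter, trend or block therefore could not turn the sign. In the wider list 0 to 1 genes passed when a library was left out, the 1 being CSNK1A1 without Control 2.

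Estimates near 0 changed sign. With quantile normalization APC was at -0.019, and with the GC correction APC was at -0.0056, TCF7 at 0.0049 and AES at 7e-05. With a library left out, the log2 fold change ranged from -0.074 to 0.14 for APC, -0.16 to 0.15 for TCF7, -0.04 to 0.13 for TCF7L2, -0.04 to 0.17 for ZNRF3 and -0.088 to 0.24 for MYC. Without a change of sign, it ranged from 0.063 to 0.35 for CTNNB1, -0.20 to -0.022 for AXIN1, -0.076 to -0.027 for CD44, 0.02 to 0.35 for FZD7, 0.036 to 0.16 for FZD6, -0.95 to -0.13 for CSNK1E, 0.012 to 0.075 for CSNK1D, 0.16 to 0.37 for WNT9A, 0.25 to 0.58 for JAG1 and -0.047 to -0.018 for AES. Such fits assume that the lone library varies like the other group.

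With peaks at a p of at most 1e-05 there were 3 Control-only regions (2 in AXIN1, 1 in AXIN2) and 0 F. nucleatum-only regions. The stop codon regions of AXIN1 and AXIN2 were included because F. nucleatum 1 peaks at 1.2e-05 and 1.1e-05 lay just outside the cut. A reciprocal overlap of 50% gave 3 Control-only regions (2 in AXIN1, 1 in APC). Leaving out a list gave 1 to 4 Control-only and 1 to 2 F. nucleatum-only regions. Fewer lists then had to meet the rule, and without Control 1 the AXIN1 region was counted as 2 pieces. No share of all regions is given for these settings. With a list left out, the difference in the number of peaks ranged from -3 to 1 and that in bases from -1783 to -189, Control-only bases from 1046 to 1825 and F. nucleatum-only bases from 509 to 929.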
